A study of Mus musculus with 16 samples.

Results

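The respiratory chain and ATP synthase genes described here are 95 of the 10208 genes in a differential expression table of mouse pancreatic islets. They were taken by name: symbols beginning with Nduf, Sdhaf, Uqcr, Uqcc, Atp5 or Cox and a digit, the symbols Sdha to Sdhd, and Cycs and Cyc1. By role they comprised 76 nuclear-encoded subunits of complexes I to V, 18 assembly or associated factors, and Cycs, which encodes cytochrome c. Roles were assigned from textbook knowledge, which put Ndufa4 in complex IV, Atp5sl with the complex I assembly factors and Cox7a2l with the assembly factors of complex IV, whatever their symbols say.

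The study took total RNA from islets of adult mice with an acute knockout of Ins2, made on an Ins1 null background. The 7 Cre+T samples and 9 Cre-T samples carried one label for genotype, Ins1-/-:Ins2f/f:Pdx1CreERT:mTmG, and one for strain, mixed but mostly C57Bl/6. All 16 samples were therefore without Ins1, and all were taken 6 days after tamoxifen, which activates CreERT, a recombinase tied to an oestrogen receptor domain and driven here by Pdx1 sequence. The labels named Pdx1CreERT for Cre-T samples too and did not say whether those mice lacked the transgene, how complete the deletion was, or whether each sample was a separate animal; p-values therefore measure the spread between these samples, which may be technical. Of 6 numbers that begin the sample titles and go unexplained, 2 cover both groups (7 samples); the remaining 9 samples stand under numbers with 1 group each, so for these a difference between numbers and one between groups cannot be told apart.

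Complexes I, III and IV of the mitochondrial inner membrane pass electrons from NADH to oxygen by way of coenzyme Q and cytochrome c and pump protons as they do so. Complex II feeds in electrons from succinate without pumping, and complex V, the ATP synthase, lets the protons back to make ATP. Most subunits are encoded in the nucleus and a few in mitochondrial DNA, and dedicated factors assemble each complex and insert its haem, copper and iron-sulfur groups. In beta cells, ATP made this way closes ATP-sensitive potassium channels and so links glucose oxidation to insulin secretion.

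The authors' deposited table held, for each gene, a log2 fold change, a mean log2 expression and the statistics of a limma fit, with no value for any single sample. The level in each sample, the spread within each group and the number of samples showing a direction therefore cannot be given here. Each fold change below is the authors', given with a standard error (SE) computed from it and its moderated t. Which group was on top is not stated in its header, and Cre+T was taken to be, since Ins2, the gene deleted, stood at -0.47 ± 0.17 and Esr1, whose receptor domain is part of CreERT, at 9.30 ± 0.39 log2 units in the authors' deposited table. On that reading the groups differed in Esr1 RNA as well as in Ins2, and for other genes the part of each cannot be told apart. Ins2 also had the highest mean of all 10208 rows, 16.3 log2 CPM. The labels state 20000000 read pairs a sample, and the depth reached in each sample is unknown.

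Respiratory chain genes as a whole stayed close to no change, with a minority called in each direction. At limma's adjusted p under 0.05, 18 of the 95 rose in Cre+T islets, 8 fell and 69 were not called, so that 27.4% were called. By the same threshold the share called over all 10208 rows was 37.6%, with 17.6% higher and 20.1% lower. The share of respiratory genes called was below that background, with the higher share (18.9%) near that of all rows and the lower share (8.42%) under it, differences that were not tested. The median log2 fold change of the 95 was 0.03, with an interquartile range of -0.09 to 0.15, against a median of -0.00 and a range of -0.21 to 0.20 over all rows. Single genes reached -0.56 at the low end and 0.71 at the high end.

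The fold changes were also narrowly bounded. The 95% interval lay within 1.5-fold in either direction for 86 of the 95 (90.5%), against 67.4% of all rows. This share depends on level. At a mean of at least 5 log2 CPM it was 90.9% of these genes against 77.5% of rows, and below 5 it was 88.9% against 54.9%. An unadjusted p under 0.05 was reached by 21 genes on the higher side and 10 on the lower. The mean expression in the authors' deposited table ran from 3.23 to 9.59 log2 CPM in these genes. Of the 77 with a mean of at least 5, 24 were called (31.2%), beside 37.0% of the 5649 rows at that level. By direction 22.1% of the 77 rose and 9.09% fell, beside 20.7% and 16.3% of those rows. Of the 18 below 5, 2 were called (11.1%), beside 38.4% of all rows below 5. By direction 5.56% of the 18 rose and 5.56% fell, beside 13.7% and 24.7% of those rows.

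The split between higher and lower depended on the scaling. A shift of 0.14 log2 units makes the summed expression of both groups equal. That sum was taken over each group's mean log2 values turned back to a linear scale, so the highest rows weigh most. High rows include Ins2 (mean 16.3 log2 CPM, fold change -0.47), Iapp (14.7, 0.54) and the acinar gene Ctrb1 (12.5, 1.72). Their part in the shift was not computed. The shift moved the median of all rows to -0.15 and that of the 95 to -0.12. The split among the 95 then became 9 higher and 31 lower (42.1% called), beside 860 and 3934 of all 10208 rows (47%). With the median cytosolic ribosomal protein gene at 0 it was 12 higher and 16 lower (29.5%), beside 1237 and 2848 of all rows (40%). With a trend in expression, transcript length and GC content removed it was 15 and 14 (30.5%). Beside it stood 1589 and 2224 of 10190 rows (37.4%). Both shifts lower every fold change and leave its SE as it was. All 8 genes called lower therefore stayed called, which says little of them. Of the 18 called higher, 9 stayed called under the larger shift. Among these 9 were Ndufa1, Sdhd, Cox6c, Cox4i1, Cox8a, Cox7a2l, Atp5l and Atp5d. Genes named below as not called that passed on the lower side with the summed expression equal were Cycs, Cox15, Cox6b1, Ndufa7, Ndufab1, Ndufaf7, Ndufs1, Ndufs3, Ndufs8 and Atp5b. With the trend removed Atp5a1, Atp5b, Cox6a1, Cox6b1 and Ndufa7 passed on the lower side and Sdhaf2 on the higher. Removal of the trend took away the calls of Cox8a, Atp5g3, Atp5h, Ndufb11 and Ndufaf5 on the higher side and Ndufb7 on the lower.

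Cre+T islets also had more RNA of acinar and red blood cell markers, and of some leukocyte markers, over the same samples. All 13 measured of 15 listed acinar genes rose, by 1.72 to 3.79 log2 units (median 2.54) per the authors' deposited table, and 13 passed under both shifts and 11 with the trend removed. Of 9 measured of 15 leukocyte genes 4 rose (median 0.61), and of 4 measured of 8 red blood cell genes 3 rose (median 3.37). Cd68 was the 1 leukocyte gene with a negative fold change, -0.35, and was not called. Of 12 measured of 12 endothelial genes 2 rose (median 0.21), that is 16.7%, near the 17.6% higher over all rows. Of 11 measured of 12 beta cell genes 7 rose and 1 fell (median 0.57), the one being Ins2. The summed level of each list in each group was not computed, and the part of these cells in the respiratory gene values was not tested. In whole islets fewer cells of a type and less RNA per cell cannot be told apart.

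**Figure D1:**
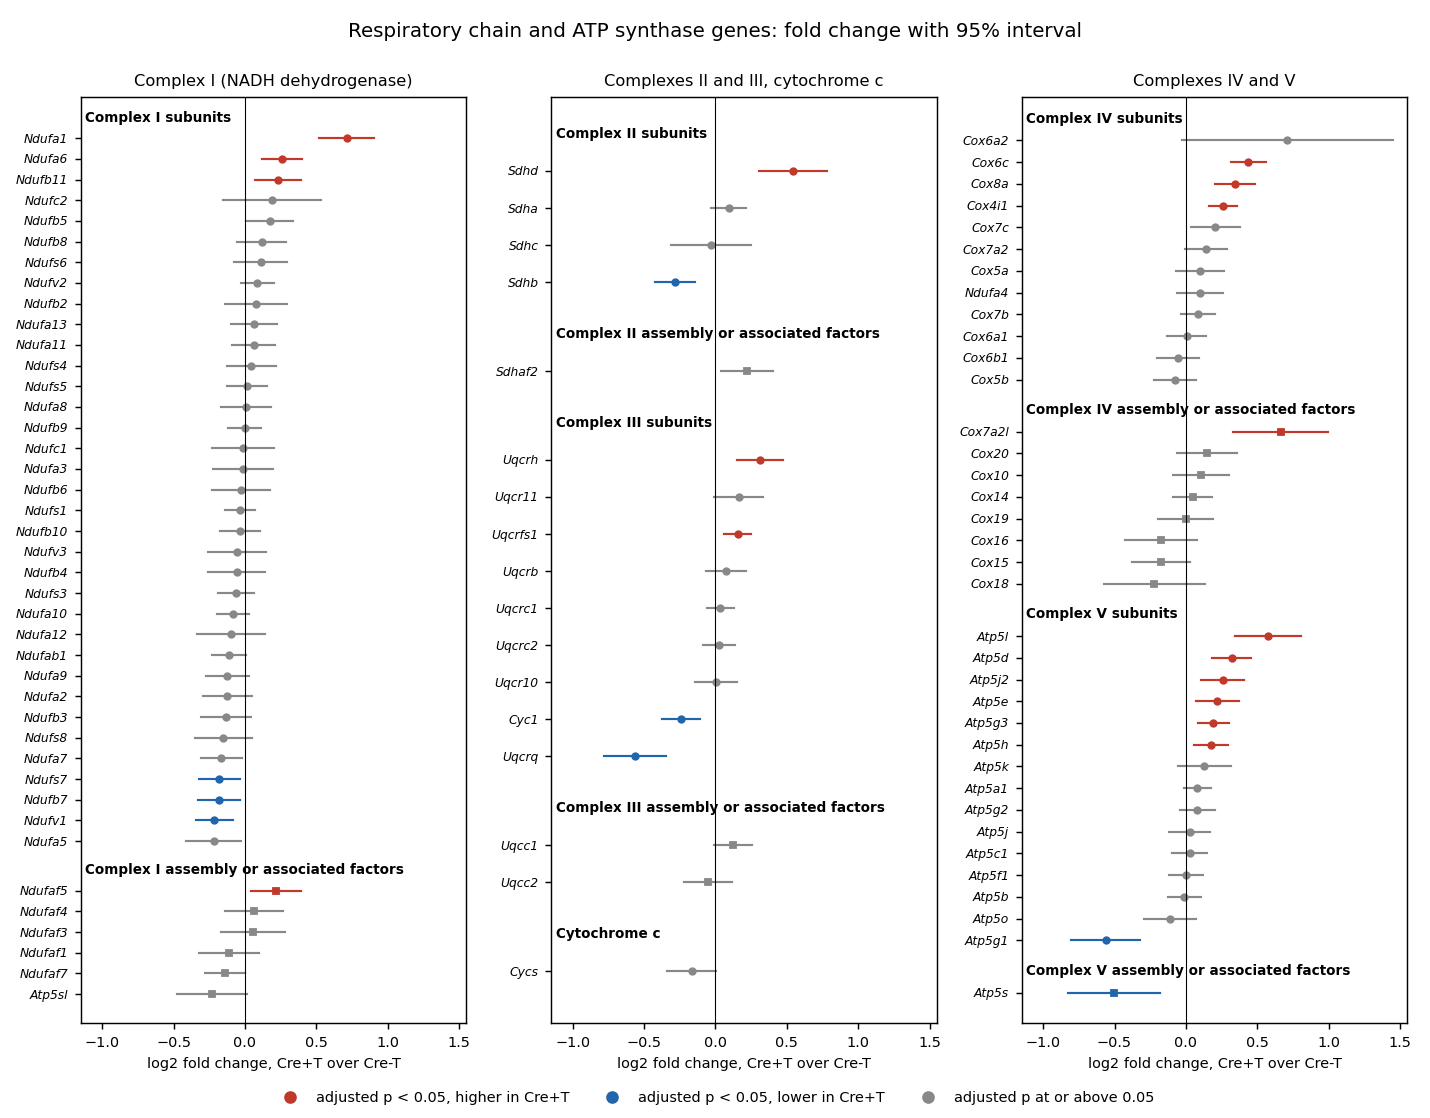
Log2 fold change (horizontal axis, Cre+T over Cre-T) of 94 of the 95 genes, with lines for the 95% interval, ordered by size within each complex and role; squares are assembly or associated factors. The 17 red genes rose, the 8 blue genes fell and the 69 grey genes were not called; Ndufa1 at 0.71 and Uqcrq at -0.56 are the extremes among called genes.

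Promoter sequences are shown for 2 pairs of genes that encode parts of one complex and were called in opposite directions. They were chosen after their values were seen. Sdhd, at 0.54 ± 0.11, and Sdhb, at -0.28 ± 0.07 in the authors' deposited table, encode subunits of complex II. Atp5g3, at 0.19 ± 0.05, and Atp5g1, at -0.56 ± 0.11 in the authors' deposited table, encode the same protein of the ATP synthase c ring from separate genes. The windows are RefSeq sequences of GRCm38.p6, 250 bases before to 50 after each start, printed 5′ to 3′ on the strand of the gene. They lie at chr9:50603800-50604099 (minus strand) for Sdhd, chr4:140961021-140961320 (plus strand) for Sdhb, chr2:73911277-73911576 (minus strand) for Atp5g3 and chr11:96075582-96075881 (minus strand) for Atp5g1. Capitals mark matches, on either strand, to 4 motifs of factors known for respiratory gene promoters: GCGCANGCG for NRF1, CCGGAAG for ETS factors such as GABP, AAGATGGC for YY1 and TCAAGGTCA for oestrogen-related receptors (ERR).
Sdhd: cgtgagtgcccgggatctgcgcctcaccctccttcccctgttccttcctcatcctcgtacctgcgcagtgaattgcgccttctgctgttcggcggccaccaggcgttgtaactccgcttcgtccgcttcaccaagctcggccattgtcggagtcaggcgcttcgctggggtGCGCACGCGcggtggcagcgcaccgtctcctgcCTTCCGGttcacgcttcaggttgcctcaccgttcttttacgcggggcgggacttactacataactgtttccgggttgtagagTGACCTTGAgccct
Sdhb: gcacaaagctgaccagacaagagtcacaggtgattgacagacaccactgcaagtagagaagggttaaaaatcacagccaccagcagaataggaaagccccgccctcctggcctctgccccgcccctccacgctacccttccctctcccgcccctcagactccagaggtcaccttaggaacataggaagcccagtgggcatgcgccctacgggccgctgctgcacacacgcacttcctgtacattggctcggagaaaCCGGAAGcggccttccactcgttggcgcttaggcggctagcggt
Atp5g3: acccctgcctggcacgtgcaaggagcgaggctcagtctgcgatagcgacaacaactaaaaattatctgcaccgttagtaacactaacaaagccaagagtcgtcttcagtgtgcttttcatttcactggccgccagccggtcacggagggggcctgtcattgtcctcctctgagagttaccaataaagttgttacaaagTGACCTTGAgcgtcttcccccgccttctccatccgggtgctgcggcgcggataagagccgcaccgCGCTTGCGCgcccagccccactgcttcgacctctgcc
Atp5g1: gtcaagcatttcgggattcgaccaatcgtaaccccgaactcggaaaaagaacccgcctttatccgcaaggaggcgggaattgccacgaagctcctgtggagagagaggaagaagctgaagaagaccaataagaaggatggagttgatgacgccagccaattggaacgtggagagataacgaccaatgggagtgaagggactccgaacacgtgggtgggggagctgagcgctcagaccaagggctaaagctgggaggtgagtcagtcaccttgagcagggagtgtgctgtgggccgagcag

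The Sdhd window held an NRF1 match whose first base is at position -79 from the transcript start, an ETS match at -46 and an ERR match at 37. Sdhb held an ETS match at 7. Atp5g3 held an ERR match at -52 and an NRF1 match at 14, and Atp5g1 had no match to these letters. RefSeq windows were found for 81 of the 95 genes, 88 windows in all. NRF1 matches stood in 25 of the 88 (28.4%), against 13.9% of the 10587 windows of genes in the authors' deposited table and 6.25% of all 32851 windows. ETS matches stood in 24 (27.3%), against 17.9% and 8.86%, and YY1 matches in 15 (17.0%), against 4.64% and 2.75%. The ERR letters stood in 2 windows (2.27%), against 0.246% and 0.423%, and those were the windows of Sdhd and Atp5g3 printed above. Matches of different motifs overlapped in 0 of the 88 windows.

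Direction of change divided the NRF1 matches as 6 of the 16 windows of genes that rose, 0 of the 6 of genes that fell and 19 of the 66 of genes not called. The ETS letters stood in 6 of 16, 2 of 6 and 16 of 66 in the same order. YY1 letters stood in 1 of 16, 1 of 6 and 13 of 66. With 6 windows among genes that fell these counts are small, and a match is a run of letters, not evidence of binding.

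Complex I, the NADH dehydrogenase, showed little net movement. Among its 36 nuclear subunits 4 rose, 3 fell and 29 were not called, and their median log2 fold change was -0.02. The share called was 19.4%, against 37.6% of all rows. Ndufa1, an accessory subunit of the membrane arm encoded on the X chromosome (ENSMUSG00000016427.7, 37187588 to 37191163 in GRCm38), rose most of the 26 genes called. It was at 0.71 ± 0.09, 1.64-fold (95% interval 1.44 to 1.87), with adjusted p 1.6e-04 by limma in the authors' deposited table. Ndufa6, a small accessory subunit that contacts the acyl carrier protein Ndufab1, was at 0.26 ± 0.07 (adjusted p 0.0072 by limma in the authors' deposited table). Ndufab1 itself was at -0.11 ± 0.06 in the authors' deposited table and was not called. Ndufb11, of the membrane arm, was at 0.23 ± 0.08 (adjusted p 0.026 by limma in the authors' deposited table).

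In the matrix arm of complex I, which takes electrons from NADH, core subunits were among those that fell. Ndufv1, which holds the flavin where NADH is oxidised, was at -0.21 ± 0.06 with an adjusted p of 0.014 by limma in the authors' deposited table. Ndufs7, which carries the last iron-sulfur cluster before coenzyme Q, was at -0.18 ± 0.07 with an adjusted p of 0.045 by limma there. Ndufs1, Ndufs3, Ndufs8 and Ndufv2, also core subunits, had values from -0.15 up to 0.09 per the authors' deposited table and were not called.

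The 29 accessory subunits of complex I held 3 that rose and 1 that fell, Ndufb7. It was at -0.18 ± 0.07 in the authors' deposited table, with adjusted p 0.0496 by limma, barely under the threshold. Ndufa7, at -0.17 ± 0.07 and adjusted p 0.061 by limma in the authors' deposited table, was barely over it. In complex I the scaling changed the count of calls. With the summed expression equal, 20 of its 42 genes were called, 2 higher and 18 lower, in place of 5 higher and 3 lower. Of all 10208 rows 47% were then called, 860 higher and 3934 lower.

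Complex II, succinate dehydrogenase, is the one complex with every subunit encoded in the nucleus. Of its 4 subunits, Sdhd rose, Sdhb fell, and Sdha and Sdhc were not called. Sdhd, one of the 2 membrane anchors, was at 1.46-fold (95% interval 1.24 to 1.72, adjusted p 0.0026 by limma in the authors' deposited table). Sdhb, the iron-sulfur subunit, was at 0.82-fold (0.75 to 0.91, adjusted p 0.0055 by limma in the authors' deposited table). Both calls and both directions held after removal of the trend. They also held under the shifts, which could only deepen the fall of Sdhb. Sdha, the flavoprotein that oxidises succinate, was at 0.09 ± 0.06 in the authors' deposited table, with an interval of 0.98- to 1.16-fold. Sdhc, the other anchor, was at -0.03 ± 0.13 in the authors' deposited table, with an interval of 0.80- to 1.19-fold. Sdhaf2, which helps to attach flavin to Sdha, was at 0.22 ± 0.09 and not called (adjusted p 0.053 by limma in the authors' deposited table).

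Complex III, which passes electrons from coenzyme Q to cytochrome c, had as many calls in one direction as in the other. Among 9 subunits 2 rose, 2 fell and 5 were not called, and the median was 0.03. The share called was 44.4%, against 37.6% of all rows. Uqcrq, a small subunit on chromosome 11 (ENSMUSG00000044894.9, 53427922 to 53430831 in GRCm38), fell most among all 95. It was at -0.56 ± 0.10, 0.68-fold (95% interval 0.58 to 0.79), with adjusted p 0.0013 by limma in the authors' deposited table. Cyc1, cytochrome c1, was at -0.24 ± 0.06 (adjusted p 0.0094 by limma in the authors' deposited table). Uqcrh, the hinge protein between cytochrome c1 and cytochrome c, rose, at 0.31 ± 0.08 (adjusted p 0.0060 by limma in the authors' deposited table). Uqcrfs1, the Rieske iron-sulfur protein, rose by less, at 0.15 ± 0.04 (adjusted p 0.013 by limma in the authors' deposited table). The 2 large core proteins were at 0.03 ± 0.04 for Uqcrc1 and 0.03 ± 0.05 for Uqcrc2 in the authors' deposited table, each within 0.94- and 1.10-fold. With the summed expression equal, Uqcrh and Uqcrfs1 were no longer called, and Uqcrq and Cyc1, whose falls that shift deepens, remained.

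Cytochrome c, the soluble carrier between complexes III and IV, was not called. Cycs was at -0.17 ± 0.08, with a 95% interval of -0.34 to 0.01 log2 units, and its adjusted p by limma was 0.12 in the authors' deposited table. It passed the threshold on the lower side with the ribosomal median at 0 and with the summed expression equal.

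Complex IV, cytochrome c oxidase, had calls on the higher side and none on the lower as the authors scaled it. Of its 12 nuclear subunits 3 rose, 0 fell and 9 were not called, and 10 had a positive fold change, with a median of 0.12. The share higher was 25% of the 12 and 20% with factors included, against 17.6% of all rows and 20.7% of rows with a mean of at least 5. Over all rows 20.1% were lower. At limma's unadjusted p under 0.05 there were 4 higher and 0 lower. Cox6c was at 0.44 ± 0.06, 1.35-fold (95% interval 1.24 to 1.48), with adjusted p 2.0e-04 by limma in the authors' deposited table. Cox8a was at 0.34 ± 0.07 (adjusted p 0.0018 by limma in the authors' deposited table). Cox4i1, the subunit at which ATP is known to regulate the bovine enzyme, was at 0.26 ± 0.05 (adjusted p 0.0011 by limma in the authors' deposited table). The sources used here do not say that reads were counted by strand, so reads from overlapping genes cannot be told apart. Cox6c overlaps Vps13b, at -0.08 ± 0.17 and not called, and Cox4i1 overlaps Emc8, which rose, at 0.24 ± 0.07 (adjusted p 0.016 by limma in the authors' deposited table). The count of the whole complex, factors included, was 4 higher and 0 lower, with a median of 0.10. With the summed expression equal it became 4 and 4 with a median of -0.04, beside 860 and 3934 of all 10208 rows. With the trend removed it became 3 and 2, beside 1589 and 2224 of 10190 rows.

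Among complex IV subunits with alternative forms, the pair measured was Cox6a1 and Cox6a2, the form of liver and most tissues and the form of heart and skeletal muscle. Cox6a1 stood 5.64-fold above Cox6a2 in mean level per kilobase of transcript. Cox6a1 was at 0.01 ± 0.06 in the authors' deposited table, with an interval of 0.91- to 1.10-fold. Cox6a2 was at 0.71 ± 0.35 in the authors' deposited table, as large a fold change as that of Ndufa1, but its interval ran from 0.98- to 2.73-fold and limma's adjusted p was 0.12. It had the widest interval of the 95. Cox7a2 was at 0.14 ± 0.07, Cox6b1 at -0.06 ± 0.07 and Ndufa4 at 0.10 ± 0.08 in the authors' deposited table, and none of these 3 was called.

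Complex V, the ATP synthase, had calls in 8 of its 16 genes, more of them higher than lower as the authors scaled them. The share higher was 37.5% and lower 12.5%, against 17.6% and 20.1% of all rows, differences not tested. Of its 15 nuclear subunits 6 rose, 1 fell and 8 were not called, with a median of 0.08. Atp5l and Atp5j2, subunits g and f beside the c ring in the membrane, were at 0.57 ± 0.11 and 0.26 ± 0.07 in the authors' deposited table (adjusted p 0.0017 and 0.011 by limma). Atp5d and Atp5e, the delta and epsilon subunits of the central stalk, were at 0.32 ± 0.06 and 0.22 ± 0.07 there (adjusted p 0.0022 and 0.024 by limma). Atp5h, subunit d of the peripheral stalk, was at 0.18 ± 0.06 in the authors' deposited table (adjusted p 0.021 by limma). Atp5a1 and Atp5b, which form the catalytic head and had the highest mean levels per kilobase of the 95, were at 0.08 ± 0.05 and -0.01 ± 0.05 in the authors' deposited table and were not called. Their intervals were 0.99- to 1.13-fold and 0.92- to 1.07-fold as the authors scaled them. With the trend removed both were called lower by the recomputed adjusted p, Atp5a1 at -0.16 (0.012) and Atp5b at -0.27 (0.0020), and Atp5b also with the summed expression equal, at -0.15 (0.029). The trend is a quadratic fit over all rows, with each SE left as it was. Rows with means as high as those of Atp5a1 and Atp5b include acinar, beta cell and mitochondrial DNA genes that rose, and Ins2, which fell. The part of any of these rows in the fit was not tested.

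The c ring turns as protons pass, and 3 genes encode its identical subunit. Atp5g1 was at 0.68-fold (95% interval 0.57 to 0.80, adjusted p 0.0023 by limma in the authors' deposited table). Atp5g3 was at 1.14-fold (1.06 to 1.23, adjusted p 0.0092 by limma in the authors' deposited table), and Atp5g2 was at 1.06-fold (0.97 to 1.15) and not called. In mean level per kilobase Atp5g3 stood 1.16-fold above Atp5g1 and 1.21-fold above Atp5g2. The fall of Atp5g1 held with the trend removed, and under both shifts, which could only deepen it. The rise of Atp5g3 did not pass under any of these 3. Atp5s, a coupling factor named for the ATP synthase, was at -0.50 ± 0.15 (adjusted p 0.017 by limma in the authors' deposited table). For the whole of complex V the split of 6 higher and 2 lower became 2 and 5 with the summed expression equal and 4 and 4 with the trend removed. The split of all rows was then 860 and 3934, and 1589 and 2224.

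**Figure D2:**
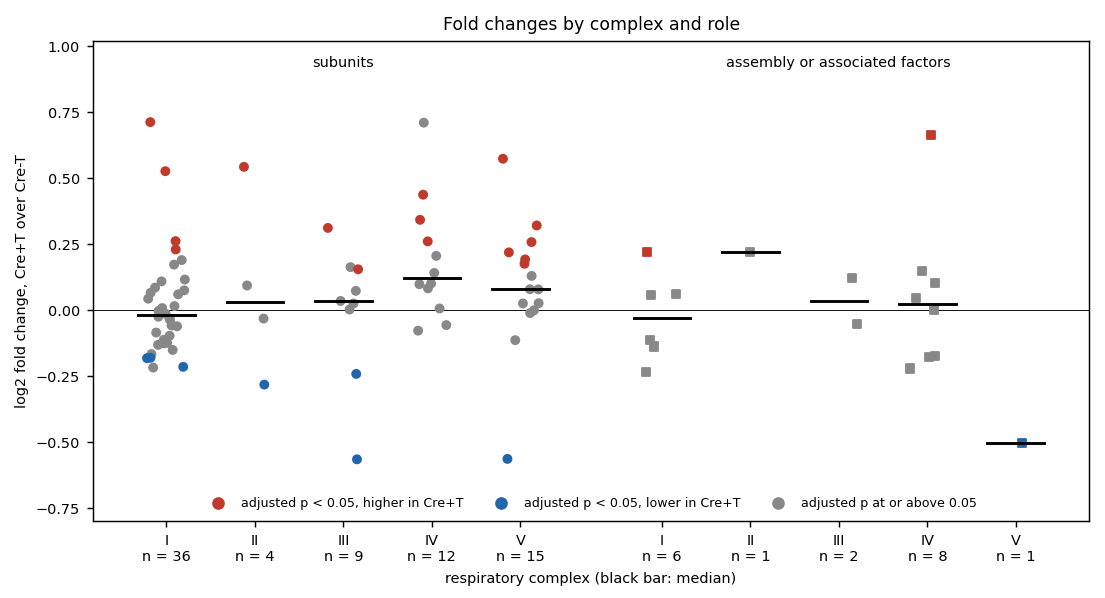
Log2 fold change (vertical axis, Cre+T over Cre-T) of each gene, by complex, for subunits on the left and assembly or associated factors on the right; black bars are medians, and the horizontal spread within a column has no meaning. Subunit medians were -0.02 in complex I, 0.12 in complex IV and 0.08 in complex V, and with the summed expression equal each is lower by the same 0.14 log2 units, so that those of complexes IV and V turn negative.

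Between complexes, the subunit median of complex IV lay 0.14 log2 units above that of complex I, and that of complex V 0.10 above it. Both shifts leave these differences as they are by construction, and with the trend removed they were 0.14 and 0.034, so the gap of complex V depends on that choice. They are descriptions of 12, 15 and 36 genes, which are not replicates, and were not tested.

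Assembly factors had few calls. Of 18 assembly or associated factors 2 rose and 1 fell (16.7%), against 16 and 7 of 76 subunits (30.3%), and the medians were 0.02 and 0.03. Over all rows 37.6% were called. The difference in share was not tested, and the mean expression in the authors' deposited table had a median of 4.22 log2 CPM in the factors and 6.29 in the subunits. Cox7a2l, placed here with the factors of complex IV, was the largest rise among them, at 0.66 ± 0.16, 1.58-fold (adjusted p 0.0055 by limma in the authors' deposited table). Ndufaf5, which modifies Ndufs7 during the assembly of complex I, was at 0.22 ± 0.08 (adjusted p 0.046 by limma in the authors' deposited table). Atp5s was the one that fell. Factors for haem a synthesis in complex IV, Cox10 and Cox15, were at 0.10 ± 0.09 and -0.18 ± 0.10 in the authors' deposited table and not called. The complex III factors Uqcc1 and Uqcc2 were at 0.12 ± 0.06 and -0.05 ± 0.08 there and not called, and Ndufaf7 of complex I was at -0.14 ± 0.07 in the authors' deposited table and not called.

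**Figure D3:**
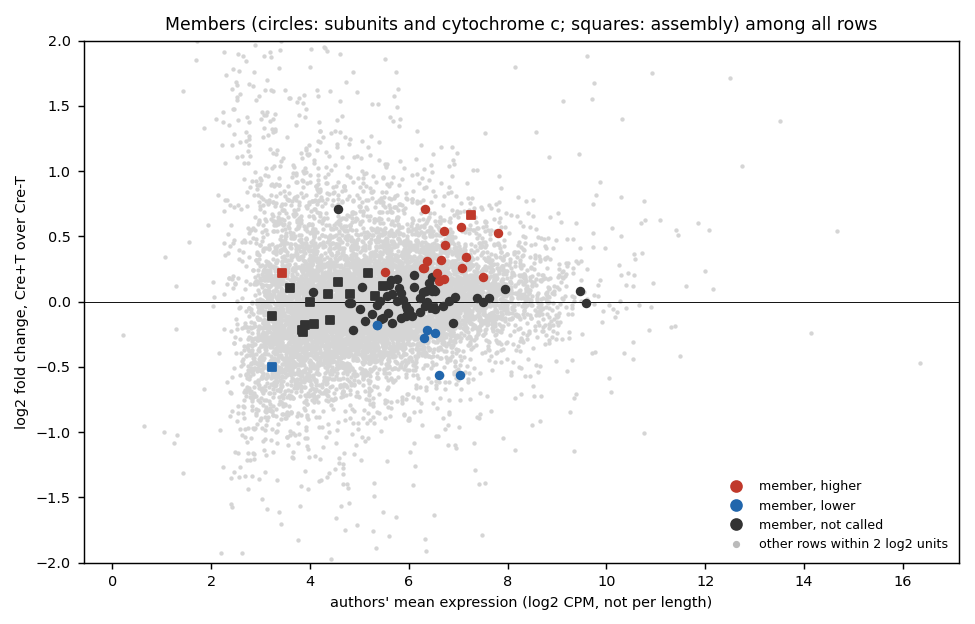
Log2 fold change (vertical axis, Cre+T over Cre-T) against the authors' mean expression in log2 CPM (horizontal axis, not per length) for the 95 genes, with all other rows within 2 log2 units in light grey. The 95 lie between 3.23 and 9.59 log2 CPM, and 86 of them have a 95% interval within 1.5-fold.

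Some calls rest on reads that could belong to other genes. By sequence, 25 of the 95 had a copy of their coding sequence, at least 95% identical over at least 50% of its length, at another annotated gene, most often a pseudogene. Atp5l had 8 such copies, Atp5h 4 and Cox6c 2, and Atp5g1 and Cox7a2l 1 each. Without these 25 genes, 13 of 70 rose and 7 fell. Another gene of the authors' deposited table overlapped 18 of the 95, of which 5 were called, among them Ndufb11, Cox6c, Cox4i1 and Atp5d.

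Genes of oxidative phosphorylation outside the name rule were read the same way, beside the 37.6% of all rows called. Of the 13 protein genes of mitochondrial DNA 4 had a row, and 3 of them rose: mt-Nd1 was at 0.63 ± 0.20, mt-Nd2 at 0.60 ± 0.20 and mt-Cytb at 0.60 ± 0.22 in the authors' deposited table (adjusted p 0.022, 0.025 and 0.039 by limma). The fourth, mt-Co1 of complex IV, was at 0.51 ± 0.20 and not called (adjusted p 0.057 by limma in the authors' deposited table). Their SEs, 0.20 to 0.22, compare with a median of 0.07 in the nuclear subunits. These calls rest on the scaling: 0 of the 4 passed with the summed expression equal, where their median was 0.46, 2 passed with the ribosomal median at 0, and 0 passed with the trend removed, where the median was 0.02 and mt-Cytb and mt-Co1 turned negative, at -0.06 and -0.04. Usmg5, a small ATP synthase subunit, rose, at 0.26 ± 0.09 (adjusted p 0.029 by limma in the authors' deposited table), and was not called under either shift. Atpif1, the ATP synthase inhibitor, was at 0.13 ± 0.08 in the authors' deposited table and not called.

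Assembly factors with other names were called lower or not at all. Of 28 measured, of 35 listed, 0 rose and 9 fell, with a median of -0.15. Lower calls were 32.1% of the 28, beside 20.1% of all rows and 24.7% of rows with a mean under 5. At limma's unadjusted p under 0.05 there were 3 higher and 11 lower. Timmdc1, an assembly factor of the complex I membrane arm, was at -0.68 ± 0.12 (adjusted p 0.0012 by limma in the authors' deposited table). Tmem177, known in human cells as a factor for the mitochondrially encoded Co2 subunit, was at -0.48 ± 0.10 (adjusted p 0.0026 by limma in the authors' deposited table). Bcs1l, which inserts the Rieske protein into complex III, was at -0.56 ± 0.13, and Coa4, a complex IV factor, was also at -0.56 ± 0.13 in the authors' deposited table (adjusted p 0.0048 and 0.0050 by limma). The median of the 28 lay 0.17 log2 units below that of the 18 factors taken by the name rule, a difference with no test. The count was 0 higher and 18 lower with the summed expression equal and 1 and 9 with the trend removed. The split of all rows was then 860 and 3934, and 1589 and 2224.

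Coenzyme Q and other electron donors, 17 measured of 20 listed, had 1 gene higher (5.88%) and 7 lower (41.2%), with a median of -0.18. Over all rows 17.6% were higher and 20.1% lower, and the differences were not tested. Pdss2, a subunit of the enzyme that makes the tail of coenzyme Q, was at -0.56 ± 0.12, and Etfdh, which passes electrons from fatty acid and amino acid oxidation to coenzyme Q, at -0.42 ± 0.09 in the authors' deposited table (adjusted p 0.0027 and 0.0029 by limma). Coq10b, which binds coenzyme Q, was the one that rose, at 0.63 ± 0.13 (adjusted p 0.0029 by limma in the authors' deposited table). Iron-sulfur cluster assembly, 13 measured of 15 listed, had 0 higher and 4 lower (30.8%), with a median of -0.13. This share called was below the 37.6% of all rows. Lower calls alone were 20.1% of all rows and 24.7% of rows with a mean under 5. At limma's unadjusted p under 0.05 the list had 0 higher and 5 lower. Hspa9, the mitochondrial HSP70, was at -0.85 ± 0.08 in the authors' deposited table (adjusted p 1.8e-05 by limma).

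Regulators of respiratory genes and of mitochondrial DNA, 13 measured of 19 listed, had 1 higher (7.69%) and 4 lower (30.8%), with a median of -0.12. The share called, 38.5%, was near the 37.6% of all rows, of which 17.6% were higher and 20.1% lower. Nrf1, the factor whose motif is marked in the sequences above, was at -0.60 ± 0.10, 0.66-fold (adjusted p 5.6e-04 by limma in the authors' deposited table). Peo1, the helicase of mitochondrial DNA, was at -0.69 ± 0.12 (adjusted p 9.7e-04 by limma in the authors' deposited table). Of the GABP genes, Gabpb1 rose, at 0.38 ± 0.09, Gabpb2 fell, at -0.24 ± 0.06, and Gabpa was at 0.01 ± 0.07 in the authors' deposited table (adjusted p 0.0043, 0.0058 and 0.89 by limma). Genes of mitochondrial content and exchange, 15 measured of 15 listed, had 2 higher (13.3%) and 5 lower (33.3%), with a median of 0.00. With the summed expression equal they had 0 higher and 8 lower, beside 860 and 3934 of all 10208 rows. Vdac3, an outer membrane channel, was at -0.86 ± 0.11, and Hspd1, the matrix chaperonin, at -0.25 ± 0.05 in the authors' deposited table (adjusted p 1.8e-04 and 0.0021 by limma).

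**Figure D4:**
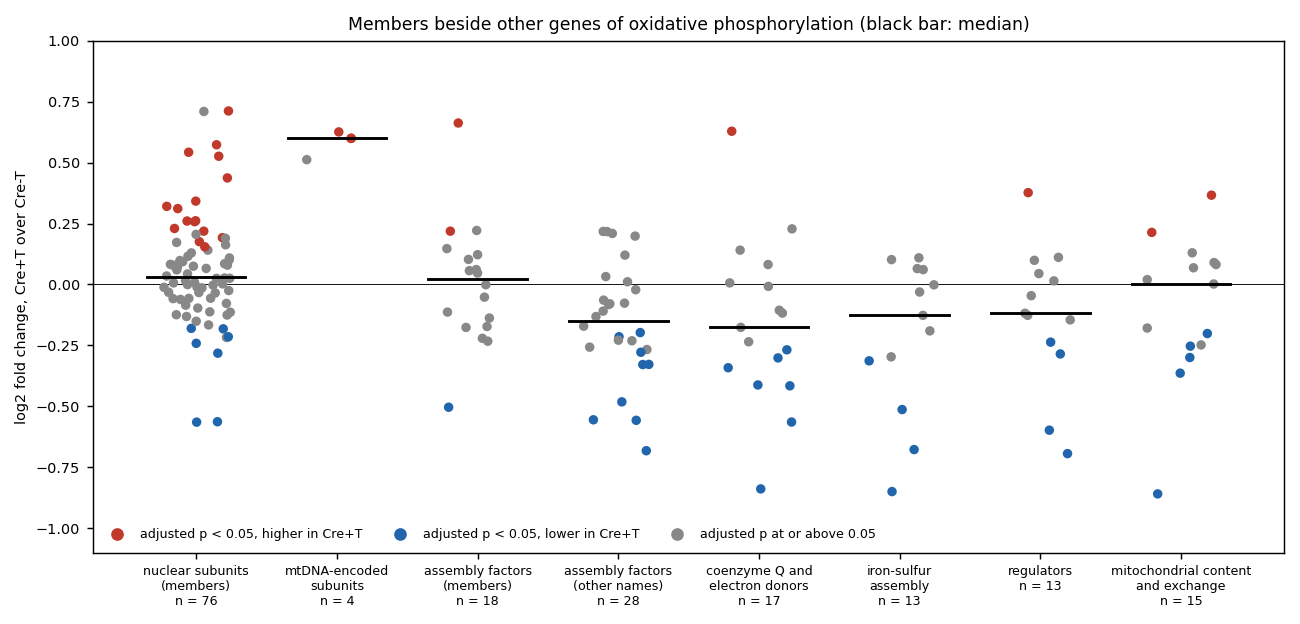
Log2 fold change (vertical axis, Cre+T over Cre-T) of the nuclear subunits and assembly factors among the 95 beside 6 other lists; each point is a gene and black bars are medians. The 76 nuclear subunits centre on 0.03, the 4 measured mitochondrial DNA genes on 0.60, the 28 other assembly factors on -0.15, and the 17 genes of coenzyme Q and electron donors on -0.18.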

How the data were processed

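Islet RNA of 7 Cre+T and 9 Cre-T samples, grouped by the labels, was sequenced. Per the submitters' processing notes the aligner was TopHat2, the build GRCm38 and the test limma; how reads were counted and filtered, and which samples entered the fit, is not given in the sources used here. Per the file headers the authors deposited a log2 fold change, a mean log2 expression, a p-value with its adjusted form and q-value, and a moderated t score beside a log-odds score for each of 10208 rows. The values are named as voom and limma output, and the mean was taken as log2 CPM. The authors' q-value was 0.325 times their adjusted p-value, and the adjusted p-value was used. There were 0 value columns that belong to no labelled sample. No term for the numbers in the sample titles, which are largely confounded with the groups, could be fitted to the table.

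Standard errors were computed as the fold change divided by t, and 95% intervals with 16.1 degrees of freedom, the value that t and p imply. Genes were called at limma's adjusted p under 0.05 over all rows. The code that recomputes adjusted p-values and removes the trend was tested on simulated data. Levels per kilobase used the coding transcript with the longest coding sequence in GENCODE M21 (GRCm38). Copies were found with blastn 2.17.0, and promoters came from RefSeq on GRCm38.p6; the protein sequences were not used here. Python 3.11.15, numpy 2.4.6, pandas 2.3.3, scipy 1.17.1 and matplotlib 3.10.9 were used.

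Members and lists were chosen with earlier results of these data known, and no list was tested as a set. Named were the 3 subunits and 2 factors of each complex with the smallest p, all of complex II and cytochrome c, the highest mean of each complex, alternative subunit forms, and the 2 genes with the smallest p of each list; others were picked once values had been seen. Some genes that this rule takes are left out and not reported here. The alternatives tried were thresholds (0.01, 0.1, a fold of 1.2, Holm), a mean of at least 5, 2 scalings, and a trend removed. Added after the data were seen were the q-value, genes with copies left out, and placement by symbol.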

Additional observations from a re-analysis of the deposited data

How the results depend on the processing

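No paired analysis was possible because the table holds no values per sample and the labels number no replicates; for the same reason no replicate could be left out, and depth per sample is unknown. Of the 26 calls, 17 remained with the summed expression equal, 20 with the ribosomal median at 0, 20 with the trend removed and 16 at an adjusted p under 0.01, all in the same direction. Where a change is not put down to the construction of an alternative, its cause was not tested.

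At an adjusted p under 0.01, 12 genes were higher and 4 lower, with 15 subunits, 1 factor, 3 complex I and 4 complex V genes called. Holm adjustment left 2 higher and 0 lower, that is 2 subunits and 0 factors, with 1 gene each in complexes I and IV and 0 in II, III and V. A minimum fold of 1.2 left 9 higher and 4 lower, with 11 subunits, 2 complex I, 2 complex III and 4 complex V genes. These 3 are stricter by construction. They called 16.8%, 2.11% and 13.7% of the 95, beside 18%, 1.35% and 31.2% of all rows.

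With the summed expression equal, 9 were higher and 31 lower, which is 42.1% called, beside 47% of all rows. The medians, moved by the shift itself, became -0.12 for all 95, -0.11 for subunits, -0.12 for factors, and -0.16, -0.049, -0.11, -0.043 and -0.064 for complexes I to V. Called were 7 factors, 20 complex I, 2 complex III and 8 complex IV genes. With the ribosomal median at 0, 16 were lower, with 13 complex I and 5 complex V genes called. With the trend removed 14 were lower, the medians of complexes II and V were 0.0098 and -0.037, and Cox6a1 turned to -0.17 with adjusted p 0.046. Among rows with a mean of at least 5, 1 factor was called and the factors' median was 0.12, from fewer genes. Without genes with copies, 2 complex IV and 5 complex V genes were called. By the authors' q-value 25 were higher and 14 lower, with 7 factors, 14 complex I and 7 complex IV genes called. The share was 41.1%, beside 54.4% of all rows. An adjusted p under 0.1 gave 21 higher and 10 lower (32.6%, beside 47.3% of all rows). Placement by symbol kept every count within 1.5 times. A copy among the 95 was found for 0 genes, and 0 of their names repeated. Of 34 genes named by rule, the threshold was no longer passed by 4 with the summed expression equal, 2 with the ribosomal median at 0 and 3 with the trend removed, and newly passed in the same direction by 5, 2 and 3.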
